A study of Mus musculus with 8 samples.

Results

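The question here was which genes responded to vismodegib differently in Lgr5-positive and Lgr5-negative cells of mouse basal cell carcinoma, and which of the populations moved to give each difference. For every gene the log2 signal of Lgr5-positive cells minus that of Lgr5-negative cells was taken in each mouse. The mean gap was then compared between the 2 treated and the 2 untreated mice. The main test used the means of the 4 groups and did not link the 2 arrays of a mouse. This comparison uses all 8 arrays of the series, and no array was chosen by a measured value. Of 14403 genes tested, 202 passed at an adjusted p under 0.05 in limma (Benjamini-Hochberg over all tested genes, two-sided), which is 1.4% of them. A positive difference means that the drug raised a gene more, or lowered it less, in Lgr5-positive than in Lgr5-negative cells.

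All mice were of the genotype K14-CreER/Ptch1cKO and bore tumours on the back skin, so the controls lack Ptch1 in the recombined cells as well. The K14 promoter drives the inducible Cre in basal keratinocytes, and cells of other lineages keep an intact Ptch1 gene. Both populations were Lrig1-positive: the labels call them Lgr5+Lrig1+ and, in their own spelling, Lrg5-Lrig1+, and the mice are either Untreated or Vismodegib. Each of the 4 groups holds 2 arrays from 2 mice, and both populations of a mouse carry its number, while the numbers tie no treated mouse to an untreated one. The labels give no dose or time of the drug and no age of the mice, and the sort as described used no marker that removes leukocytes.

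Hedgehog ligands act by binding Patched1, which then no longer holds back the receptor Smoothened, and the Gli transcription factors switch on their targets. Loss of Ptch1 leaves the pathway on without a ligand and gives basal cell carcinoma, and vismodegib blocks Smoothened. Lgr5 is a receptor for R-spondins that strengthens Wnt signalling and marks stem cells of the lower hair follicle, while Lrig1 marks cells of the upper follicle and restrains growth factor receptors.

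Arrays of one group correlated with each other at 0.981 to 0.992 over the tested genes, and array medians lay between 6.13 and 6.20 on the log2 scale. Keratinocyte markers, such as Krt5 and Krt14, averaged between 11.5 and 11.7 in all 8 arrays, and 0 of 11 passed for the difference. Markers of macrophages, dendritic cells and Langerhans cells did not stay level. Their mean log2 signal over 31 genes lay between 6.25 and 6.48 in untreated Lgr5-negative arrays, between 5.57 and 5.71 in untreated Lgr5-positive arrays, between 7.06 and 7.16 in treated Lgr5-negative arrays and between 7.44 and 7.84 in treated Lgr5-positive arrays. None of the 31 was below the dim level of 4.85, the 25th percentile of all values, on all 8 arrays. Their part in the results was not tested. Means of the other marker lists over the 8 arrays lay between 5.02 and 5.11 for neutrophils and mast cells, 5.67 and 5.92 for lymphocytes, 5.81 and 6.05 for fibroblasts, 5.34 and 5.63 for endothelial cells and pericytes, 5.59 and 6.04 for melanocytes and Schwann cells and 5.56 and 5.71 for erythrocytes and muscle. For Merkel cells, sebocytes and sweat ducts they lay between 6.32 and 6.69 in untreated and between 6.77 and 7.05 in treated arrays. In sorted bulk samples, more cells of a type and more RNA per cell cannot be told apart.

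In 143 of the 202 genes the difference was positive, which is 0.993% of all tested, and in 59 it was negative, which is 0.41%. Over the genes with a positive difference the median gap between the populations was 1.77 log2 units in size in untreated mice and 0.342 in treated mice. Over those with a negative difference it was 1.38 and 0.139. The populations thus lay closer together after the drug in most of these genes. In 188 of the 202 the gap closed, meaning that the populations differed in untreated mice (adjusted p under 0.05 in limma) and no longer passed in treated mice. A gap classed as closed need not be small: that of Abca12 was −1.05 in treated mice (limma adjusted p = 0.0614). Over all patterns, 18 of the 143 genes with a positive difference had a treated gap over 1 log2 unit in size, and 0 of the 59 with a negative one. Among all tested genes the populations differed in 2466 without the drug, or 17.1% (6.21% higher and 10.9% lower in Lgr5-positive cells), and in 68 with it, or 0.472% (0.34% and 0.132%). In 8 called genes a gap opened, in 3 the gap turned round, in 2 it passed with the same sign in both treatments and in 1, Dop1b, it passed in neither. These patterns use the same arrays as the difference itself and describe it without adding support.

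The 2 treated gaps lay outside the 2 untreated gaps in all 202 genes, but this also held for 52% of all tested genes. Each arm holds only 2 mice, and the number of calls depended on single arrays. Without untreated Lgr5-negative array 2 the count fell to 8, and without treated Lgr5-positive array 1 it fell to 2, Abca12 and Ccl6. It was 66 without untreated Lgr5-negative array 1, 109 without treated Lgr5-negative array 2 and 79 without treated Lgr5-positive array 2. The other 3 omissions gave 150, 238 and 251. Abca12 was the only called gene that passed in all 8 of these fits, so every other called gene lost its call in at least 1 of them. All 202 kept the sign of their difference in the 8 fits, but they were picked on these same arrays, so this adds no support. Both populations come from the same mice, and with the mouse as a block 300 genes passed, or 2.08%, of which 93 were negative. Without the filter on dim genes 146 of the 202 kept their call. Those that did not included Lgr5, Ctss, Mrc1, Cxcl1, Sprr2d, F3, Aqp3, Nipal1, Prss23, Tbx1, Lamb1, Pfkl, Dop1b, Icos and Rnf121, whose adjusted p in limma then lay between 0.0523 and 0.0659.

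**Figure D1:**
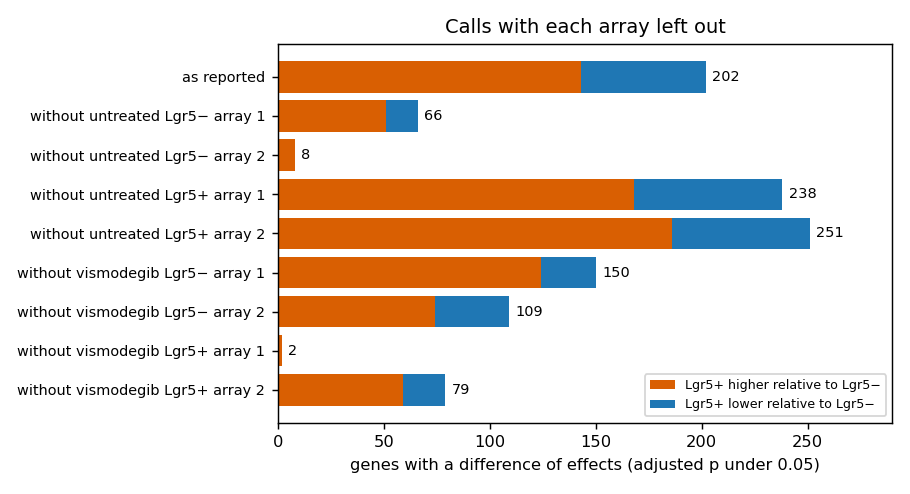
Number of genes with a difference of vismodegib effects (limma, adjusted p under 0.05) in the full data and with each of the 8 arrays left out, split by direction. The total fell from 202 to 8 without untreated Lgr5-negative array 2 and to 2 without treated Lgr5-positive array 1, and rose to 251 without untreated Lgr5-positive array 2.

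**Figure D2:**
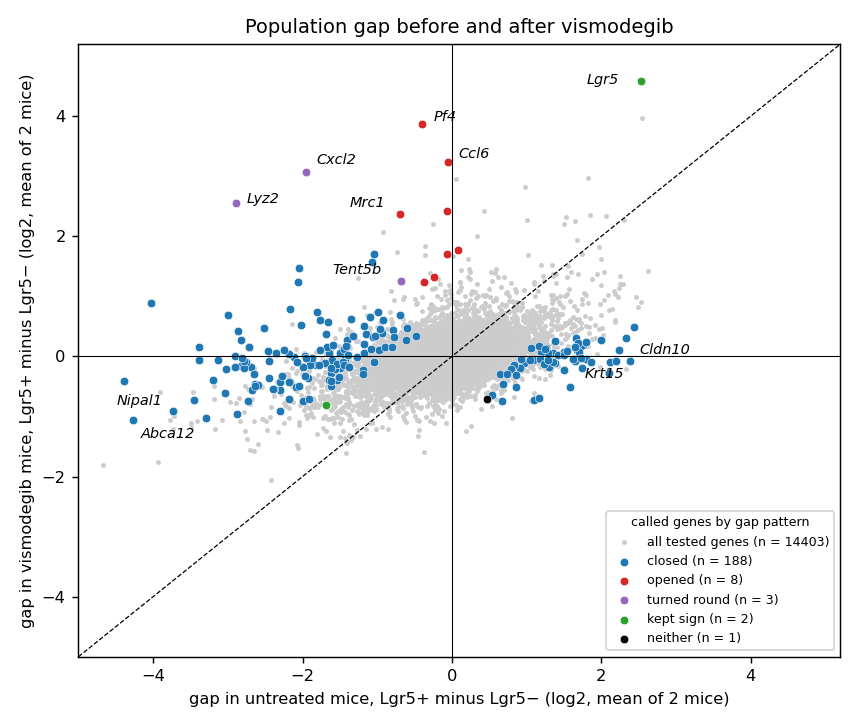
Mean gap between the populations (Lgr5-positive minus Lgr5-negative, log2, mean of 2 mice) in untreated mice on the horizontal axis and in treated mice on the vertical axis, 1 point per tested gene, with the 202 called genes coloured by gap pattern. Most called genes lie far from 0 along the horizontal axis and near 0 along the vertical axis, while Pf4, Ccl6 and Mrc1 do the opposite and Lyz2, Cxcl2 and Tent5b change sign.

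The drug effect passed more often on the Lgr5-positive side. The vismodegib effect passed in Lgr5-positive cells alone in 131 of the 202 genes, of which 87 had a positive and 44 a negative difference. The median effect in the 87 was 1.88 log2 units in Lgr5-positive and −0.06 in Lgr5-negative cells, and in the 44 it was −1.55 and −0.13. In 29 genes the effect passed in Lgr5-negative cells alone, 24 with a positive and 5 with a negative difference. The median effect in the 24 was 0.21 in Lgr5-positive and −1.77 in Lgr5-negative cells, so these genes fell in Lgr5-negative cells. In 20 genes both effects passed with opposite signs, in 19 both passed with the same sign but unequal size, and in 3 (Rnf121, Tsnax and Icos) neither effect passed. With the mouse as a block Rnf121 and Tsnax lost their call (limma adjusted p = 0.0568 and 0.0652). With probe sets averaged all of these 3 lost theirs, with differences of 0.68, 0.49 and 0.59 in place of 1.32, 0.95 and 1.20. Over all tested genes the drug effect passed in 10.9% in Lgr5-positive cells (6.37% raised and 4.51% lowered) and in 3.32% in Lgr5-negative cells (1.26% raised and 2.06% lowered). A split by the size of each effect, with no p-value, gave 126 genes in which the Lgr5-positive log2 effect was at least 2 times the size of the other, 26 in which the Lgr5-negative one was, and 50 between.

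**Figure D3:**
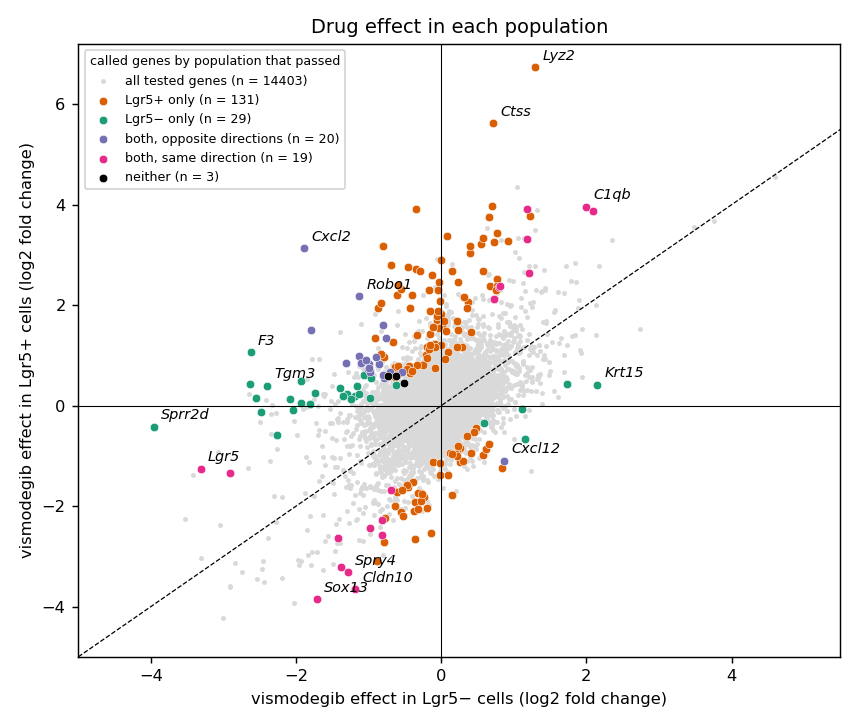
Vismodegib effect (treated minus untreated, log2) in Lgr5-negative cells on the horizontal axis and in Lgr5-positive cells on the vertical axis, 1 point per tested gene, with the 202 called genes coloured by which effect passed. The dashed diagonal marks equal effects. The 131 genes that passed only in Lgr5-positive cells spread along the vertical axis, and the 29 that passed only in Lgr5-negative cells spread along the horizontal axis.

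The genes of the sort itself come first. The log2 signal of Lgr5 was 8.52 and 8.40 in untreated Lgr5-negative cells, 10.98 and 11 in untreated Lgr5-positive cells, 5.46 and 4.83 in treated Lgr5-negative cells and 9.44 and 10.03 in treated Lgr5-positive cells. Lgr5 was therefore higher in the cells sorted as Lgr5-positive in each mouse, a direction that the sort itself favours. The sort is described by Lgr5-GFP and not by Lgr5 RNA. Lgr5 was lower after the drug in both populations. It fell by 1.25 in Lgr5-positive and by 3.31 in Lgr5-negative cells, a difference of 2.06 ± 0.35 (SE, limma, adjusted p = 0.0413). With the mouse as a block the adjusted p of Lgr5 was 0.0538, and with all probe sets of the gene averaged the difference was 1.44, which did not pass (limma adjusted p = 0.053). Lrig1, the marker that both sorts required, had a difference of −0.58 ± 0.24 that did not pass (limma adjusted p = 0.259).

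The Hedgehog pathway gave no gene with a different response at the threshold. Of 19 tested members of the list 0 passed, and 17 lay below 0, with a median difference of −0.40 against −0.002 over all tested genes. The drug lowered 6 of the 19 in Lgr5-positive cells and 5 in Lgr5-negative cells. Gli1, the transcription factor that is also a direct pathway target, measured 9.05 and 8.75 in untreated Lgr5-negative, 9.73 and 10.13 in untreated Lgr5-positive, 6.56 and 6.37 in treated Lgr5-negative and 6.42 and 6.39 in treated Lgr5-positive cells. After the drug Gli1 was at one level in both populations, and it fell by 3.52 in Lgr5-positive and fell by 2.44 in Lgr5-negative cells. The difference of −1.08 ± 0.24 did not pass (limma adjusted p = 0.0814). Ptch1 had a difference of −0.30 ± 0.31 (limma adjusted p = 0.659), and −0.66 with its probe sets averaged (limma adjusted p = 0.155). Hhip, which binds Hedgehog ligands at the cell surface and is a pathway target, had a difference of −1.91 ± 0.51 (limma adjusted p = 0.118, and 0.0321 with the mouse as a block).

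Among the largest differences were genes of macrophages and other phagocytes, which rose more in Lgr5-positive cells. Lyz2, the lysozyme of macrophages and neutrophils, measured 6.78 and 7.48 in untreated Lgr5-negative, 4.85 and 3.63 in untreated Lgr5-positive, 8.39 and 8.45 in treated Lgr5-negative and 11.02 and 10.93 in treated Lgr5-positive cells. It was the lower population that became the higher one. Lyz2 rose by 6.73 log2 units in Lgr5-positive cells, its change of 1.29 in Lgr5-negative cells did not pass, and the difference was 5.44 ± 0.53 (limma adjusted p = 0.0112). Its untreated Lgr5-positive values were at or below the dim level, so the true size is not fixed by these arrays. Without the treated Lgr5-positive array 1 or the untreated Lgr5-negative array 2, Lyz2 kept its sign and lost its call, and its adjusted p lay between 0.00559 and 0.107 over all alternatives. Its probe set is of a type that can bind related transcripts.

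Ctss, the lysosomal protease cathepsin S, measured 9.41 and 9.77 in untreated Lgr5-negative, 6.6 and 4.52 in untreated Lgr5-positive, 10.53 and 10.08 in treated Lgr5-negative and 11.44 and 10.93 in treated Lgr5-positive cells. Tyrobp, an adaptor of receptors on myeloid and natural killer cells, measured 8.0 and 8.6, then 5.43 and 5.45, then 9.31 and 8.68, then 9.70 and 9.14 in the same order. In both genes the Lgr5-positive cells stood far below the Lgr5-negative cells without the drug and slightly above them with it. The differences were 4.91 ± 0.82 for Ctss (limma adjusted p = 0.0401) and 3.28 ± 0.40 for Tyrobp (limma adjusted p = 0.0171). For Ctss the untreated Lgr5-positive value of 4.52 lay below the dim level, far from the 6.6 of the other mouse. The size of its difference is thus not fixed by these arrays. C1qb, a chain of the complement component that tissue macrophages make, rose in both populations, by 3.96 in Lgr5-positive and 1.99 in Lgr5-negative cells, with a difference of 1.97 ± 0.24 (limma adjusted p = 0.0171).

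Of 30 tested myeloid markers 6 passed, all with a positive difference: Lyz2, Ctss, Tyrobp, Mrc1, C1qb and Clec10a. The median difference over the 30 was 0.99, and 27 lay above 0. The drug raised 24 of the 30 in Lgr5-positive cells and 6 in Lgr5-negative cells, and lowered 0 in either. The 3 members below 0 were Aif1, Cd207 and Cx3cr1. Cd207 (langerin, of Langerhans cells) measured 6.6 and 6.59 in untreated Lgr5-negative, 6.09 and 5.80 in untreated Lgr5-positive, 6.43 and 7.31 in treated Lgr5-negative and 5.70 and 6.05 in treated Lgr5-positive cells, so it stayed lower in Lgr5-positive cells in each mouse. Its difference of −0.34 ± 0.39 did not pass (limma adjusted p = 0.685). Aif1, Cd207 and Cx3cr1 are named here after their values were seen. In the list of phagocyte enzymes, which shares members with the markers, 3 of 18 passed (Lyz2, Ctss and Mrc1), and 16 of 18 lay above 0.

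In 8 genes the populations did not differ without the drug and differed with it, each with the higher signal in treated Lgr5-positive cells. Pf4, the platelet and macrophage chemokine CXCL4, measured 4.68 and 5.5 in untreated Lgr5-negative, 4.59 and 4.80 in untreated Lgr5-positive, 4.82 and 4.68 in treated Lgr5-negative and 9.02 and 8.2 in treated Lgr5-positive cells. Outside treated Lgr5-positive cells it lay near or below the dim level, between 4.59 and 5.5, so Pf4 stood out in 1 group alone. Of these values only the 5.5 exceeded the dim level, and the filter asks for 2 arrays. It thus kept Pf4 only through treated Lgr5-positive cells, the group that makes its difference. Its difference on the signal scale was 4.26 ± 0.46 (limma adjusted p = 0.0142), and no fold is given against values this dim.

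Ccl6, a chemokine of macrophages, measured 5.22 and 5.15 in untreated Lgr5-negative, 5.04 and 5.22 in untreated Lgr5-positive, 5.19 and 5.34 in treated Lgr5-negative and 8.83 and 8.17 in treated Lgr5-positive cells, a difference of 3.29 ± 0.29 (limma adjusted p = 0.0112). Mrc1, the mannose receptor of tissue macrophages, measured 5.02 and 6.19, then 4.98 and 4.84, then 5.18 and 5.33, then 7.85 and 7.40 in the same order, a difference of 3.07 ± 0.49 (limma adjusted p = 0.0355, and 0.0611 with array weights). C5ar1, the receptor for complement fragment C5a, stood at 7.92 and 7.93 in treated Lgr5-positive cells and between 5.05 and 5.95 in the other 6 arrays, a difference of 2.48 ± 0.38 (limma adjusted p = 0.0319). In each of these genes the 2 treated Lgr5-positive arrays lay above the other 6. Clec10a, a lectin of macrophages and dendritic cells, showed the same order with a difference of 1.69 ± 0.24 (limma adjusted p = 0.0266). The remaining genes of this pattern, named after their values were seen, were F13a1 (difference 1.77), Ms4a7 (1.56) and Lmo7 (1.62). F13a1 lay below the dim level in the other 6 arrays, so the filter kept it only through treated Lgr5-positive cells. The adjusted p of Ms4a7 with the mouse as a block was 0.062.

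Of 15 tested antigen presentation genes 1 passed, the class II chain H2-Ab1, and the list median was −0.08. H2-Ab1 measured 11.14 and 11.42 in untreated Lgr5-negative, 9.78 and 9.72 in untreated Lgr5-positive, 11.97 and 12.05 in treated Lgr5-negative and 11.89 and 11.86 in treated Lgr5-positive cells. It rose in both populations, by 2.13 and 0.73, and its gaps after the drug were −0.07 and −0.19. The difference was 1.40 ± 0.18 (limma adjusted p = 0.019), and 1.16 with all probe sets averaged, which did not pass (limma adjusted p = 0.215). H2-Aa, the partner chain, had a difference of 3.31 ± 1.03 that did not pass (limma adjusted p = 0.163) but passed at 2.11 with its probe sets averaged (limma adjusted p = 0.03), and Cd74, the invariant chain, 2.28 ± 0.47 (limma adjusted p = 0.0708). Among interferon response genes 0 of 13 passed, and 12 lay below 0.

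Vim (vimentin, an intermediate filament of mesenchymal cells and leukocytes) rose in Lgr5-positive cells from 6.46 and 6.16 to 9.77 and 9.38, and measured 7.82 and 8.41 without and 8.80 and 8.87 with the drug in Lgr5-negative cells. Its difference was 2.53 ± 0.32 (limma adjusted p = 0.0171). It was the only one of 7 tested fibroblast markers to pass, and the fibroblast markers Pdgfra, Lum, Dpt and Mfap5 were below the dim level in all 8 arrays. Hpgds, which makes prostaglandin D2, rose in both populations, by 3.88 in Lgr5-positive and 2.09 in Lgr5-negative cells, with a difference of 1.79 ± 0.26 (limma adjusted p = 0.0268).

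Chemokines and the interleukin 1 family gave 7 of 26 tested members, 6 positive and 1 negative, and the members moved by different routes. Pf4, Cxcl1, Cxcl2 and the growth factor gene Ereg lie near each other on chromosome 5, with 4 other protein-coding genes among them in the RefSeq annotation. Cxcl1 and Cxcl2 encode neutrophil attractants. Cxcl2 measured 7.02 and 7.39 in untreated Lgr5-negative, 5.73 and 4.77 in untreated Lgr5-positive, 5.21 and 5.42 in treated Lgr5-negative and 8.81 and 7.98 in treated Lgr5-positive cells. The drug lowered it in one population and raised it in the other, so that Lgr5-positive cells were the lower ones in both untreated mice and the higher ones in both treated mice. Cxcl2 fell by 1.89 in Lgr5-negative and rose by 3.14 in Lgr5-positive cells, a difference of 5.03 ± 0.51 (limma adjusted p = 0.0112). Its untreated Lgr5-positive value of 4.77 lay below the dim level, so no fold is given.

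Cxcl1, its neighbour, measured 8.09 and 8.18 in untreated Lgr5-negative, 6.67 and 7.26 in untreated Lgr5-positive, 6.01 and 5.74 in treated Lgr5-negative and 6.49 and 6.28 in treated Lgr5-positive cells. It fell by 2.26 in Lgr5-negative cells, and its change of −0.58 in Lgr5-positive cells did not pass. The difference was 1.68 ± 0.29 (limma adjusted p = 0.0422). The 4 neighbours thus reached a positive difference in 3 ways: Pf4 passed in Lgr5-positive cells only, Cxcl1 and Ereg in Lgr5-negative cells only, and Cxcl2 in both with opposite signs.

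The 250 bases before the start of Cxcl1, Cxcl2 and Pf4 are shown because these neighbours share a direction of difference and differ in the population that moved. They are from RefSeq (GRCm38.p6, chr5:90890995-90891244, chr5:90903649-90903898 and chr5:90772185-90772434, all on the plus strand), and Ereg was not matched. Capitals mark a match to the NF-kB consensus in the first pair and the letters TTCCTC, the reverse complement of the core GAGGAA read by the myeloid factor PU.1, in Pf4.
Cxcl1: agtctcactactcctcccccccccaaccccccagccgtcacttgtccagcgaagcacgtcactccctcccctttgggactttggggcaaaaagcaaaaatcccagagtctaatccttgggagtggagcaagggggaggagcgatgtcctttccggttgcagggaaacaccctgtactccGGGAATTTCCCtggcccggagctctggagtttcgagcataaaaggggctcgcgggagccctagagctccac
Cxcl2: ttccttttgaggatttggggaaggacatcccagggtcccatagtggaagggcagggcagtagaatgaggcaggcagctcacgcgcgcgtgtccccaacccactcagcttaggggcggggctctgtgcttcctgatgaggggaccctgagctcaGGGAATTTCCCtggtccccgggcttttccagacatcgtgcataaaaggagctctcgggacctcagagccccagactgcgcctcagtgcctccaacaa
Pf4: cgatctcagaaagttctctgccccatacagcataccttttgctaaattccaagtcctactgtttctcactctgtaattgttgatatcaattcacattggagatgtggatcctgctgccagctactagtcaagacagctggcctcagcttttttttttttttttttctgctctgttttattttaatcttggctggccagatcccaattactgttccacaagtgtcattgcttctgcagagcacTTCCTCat

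Cxcl1 and Cxcl2 hold the same run of 11 letters, GGGAATTTCCC, and both fell in Lgr5-negative cells, while only Cxcl2 rose in Lgr5-positive cells. Searched on both strands over 250 bases before the start, the NF-kB consensus was found in 8.63% of the 11489 tested genes with a promoter in the table, in 10.4% of 115 called genes with a positive difference and in 9.52% of 42 with a negative one. That motif was added to the search after values were seen. The PU.1 core GAGGAA was in 22.7%, 22.6% and 16.7% of the same sets. These shares describe letters and show neither a site nor a cause.

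Il1rn, the antagonist of the interleukin 1 receptor, measured 9.24 and 9.66 in untreated Lgr5-negative, 6.17 and 6.92 in untreated Lgr5-positive, 9.53 and 9.36 in treated Lgr5-negative and 9.55 and 9.35 in treated Lgr5-positive cells. It rose 7.48-fold in Lgr5-positive cells, up to the level of the Lgr5-negative cells, with a difference of 2.90 ± 0.36 (limma adjusted p = 0.0171). Il1f6 and Il18, ligands of the same family, instead fell in Lgr5-negative cells, by 1.81 and 1.40, with differences of 1.85 ± 0.23 and 1.75 ± 0.19 (limma adjusted p = 0.0171 and 0.0148). Il18 measured 6.24 and 6.16 in untreated Lgr5-negative cells and between 4.23 and 4.95 elsewhere. Of the latter values only the 4.95, in treated Lgr5-negative cells, exceeded the dim level. The filter thus kept Il18 only through the untreated Lgr5-negative arrays, the group that makes its difference. Cxcl12, the ligand of CXCR4, was the member with a negative difference. It measured 7.37 and 7.73 in untreated Lgr5-negative, 9.48 and 9.35 in untreated Lgr5-positive, 8.57 and 8.27 in treated Lgr5-negative and 8.34 and 8.31 in treated Lgr5-positive cells. Cxcl12 rose by 0.87 in Lgr5-negative and fell by 1.09 in Lgr5-positive cells, and the gap of the untreated mice was gone, a difference of −1.96 ± 0.23 (limma adjusted p = 0.0171).

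**Figure D4:**
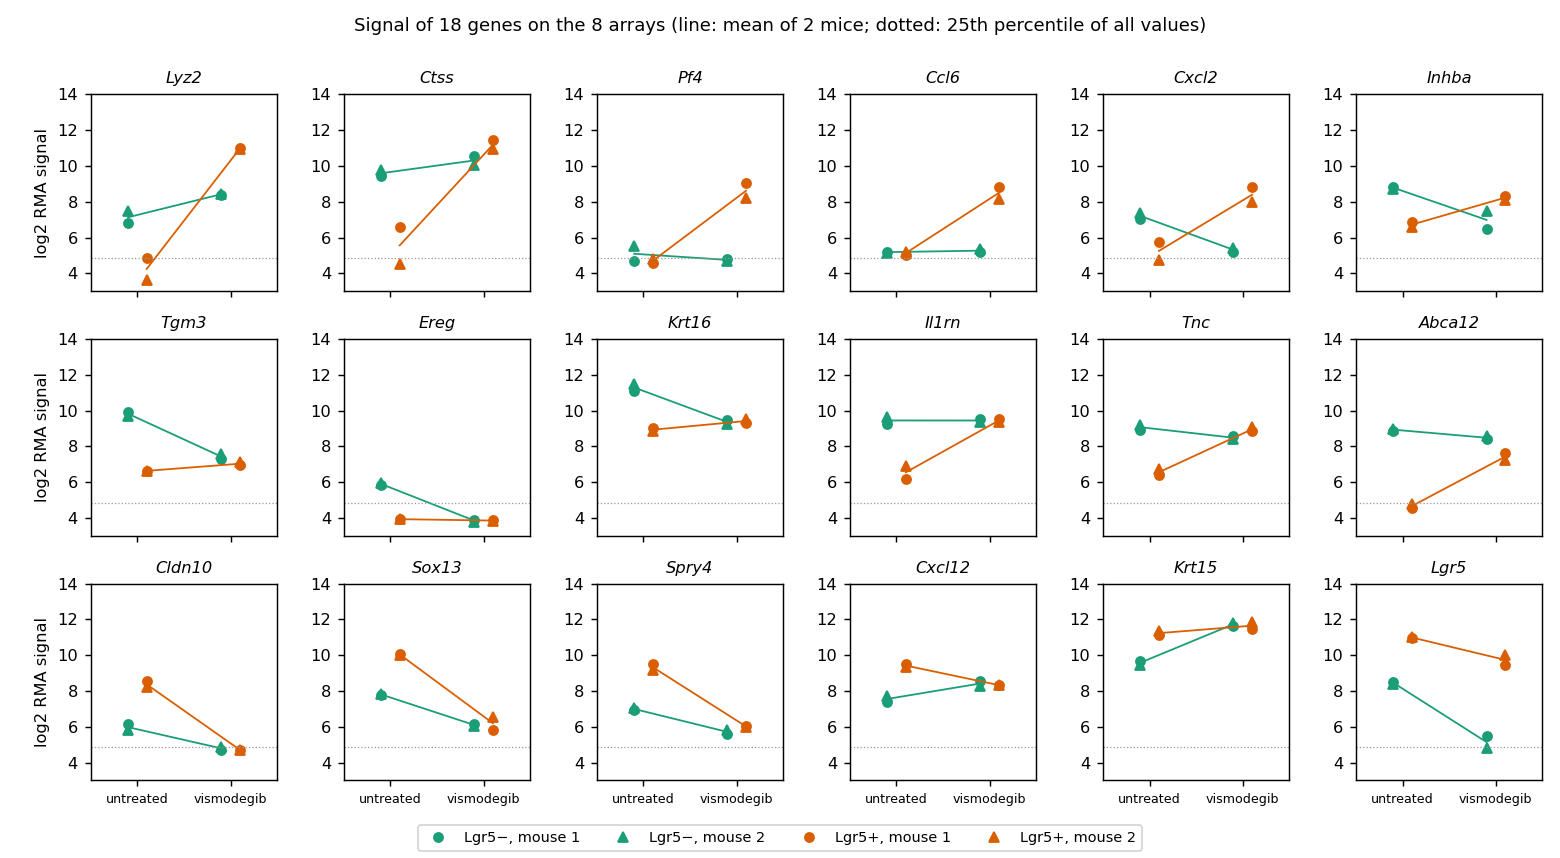
Log2 RMA signal of 18 genes on all 8 arrays, with 1 symbol per array, colour for the population, shape for the mouse number and lines through the mean of 2 mice. The dotted line is the dim level of 4.85. Pf4 and Ccl6 stand out only in treated Lgr5-positive cells, Tgm3, Ereg and Krt16 only in untreated Lgr5-negative cells, and Cldn10, Sox13 and Spry4 are highest in untreated Lgr5-positive cells.

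Genes of the wounded or stressed epidermis that passed had fallen in Lgr5-negative cells. Of 20 tested members of that list 4 passed, Sprr2d, Sprr2h, Krt16 and Il1f6, all positive. All 20 differences were above 0, from 0.25 to 3.55, with a median of 1.67. The drug lowered 10 of the 20 in Lgr5-negative cells and raised 0, while in Lgr5-positive cells it raised 4 and lowered 2. The median effect was −1.79 in Lgr5-negative and 0.13 in Lgr5-positive cells. Averaged over the list, the log2 signal was 9.09 and 9.56 in the untreated Lgr5-negative arrays and lay between 7.23 and 7.85 in the other 6.

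Sprr2d, a small proline-rich protein of the cornified envelope, measured 10.77 and 11.30 in untreated Lgr5-negative, 7.23 and 8.06 in untreated Lgr5-positive, 7.63 and 6.51 in treated Lgr5-negative and 7.0 and 7.45 in treated Lgr5-positive cells. Only the untreated Lgr5-negative arrays were high, and the other 6 overlapped. Sprr2d fell by 3.96 in Lgr5-negative cells, and the difference was 3.55 ± 0.59 (11.7-fold, limma adjusted p = 0.0393). Its neighbour Sprr2h had a difference of 3.07 ± 0.45 (limma adjusted p = 0.027) and a probe set that can bind related transcripts. Krt16, a keratin of wound edges, measured 11.11 and 11.47 in untreated Lgr5-negative, 9.0 and 8.86 in untreated Lgr5-positive, 9.49 and 9.23 in treated Lgr5-negative and 9.31 and 9.52 in treated Lgr5-positive cells. It fell by 1.93 in Lgr5-negative cells, with a difference of 2.42 ± 0.24 (limma adjusted p = 0.0112). The alarmins S100a8 and S100a9 and the keratin Krt6b, named after their values were seen, had differences of 2.04 ± 0.91, 2.16 ± 0.72 and 2.17 ± 0.92 that did not pass (limma adjusted p = 0.298, 0.187 and 0.275).

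Of 20 genes with a positive difference, an effect in Lgr5-negative cells alone and a promoter in the table, 4 hold the letters TGACTCA, a site of AP-1, on either strand within 250 bases before the start: F3, Sprr2d, Sprr2f and Sprr2h. The share was 20.0%, against 3.55% of all tested genes, 9.57% of called genes with a positive difference and 0 of 42 with a negative one, and 3 of these 4 are neighbours of one family on chromosome 3. The E-box CACGTG was in 8.05% of all tested genes, 13.0% of called genes with a positive difference and 7.14% of those with a negative one. It was in 19.4% of 72 genes with a positive difference and an effect in Lgr5-positive cells alone. For those with an effect in Lgr5-negative cells alone the share was 5.0%. The promoter of Sprr2d is shown as the strongest of the family, with the AP-1 letters TGAGTCA, the other strand of the motif, in capitals (RefSeq, GRCm38.p6, chr3:92338890-92339139, plus strand). These too are matches of letters alone.
Sprr2d: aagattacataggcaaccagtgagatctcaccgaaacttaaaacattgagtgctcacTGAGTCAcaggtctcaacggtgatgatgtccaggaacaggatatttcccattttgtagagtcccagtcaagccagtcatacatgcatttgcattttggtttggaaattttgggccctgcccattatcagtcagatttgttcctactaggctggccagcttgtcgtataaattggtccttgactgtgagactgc

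In further genes the drug effect passed in Lgr5-negative cells alone, as a fall. Tgm3, the transglutaminase that crosslinks envelope proteins and hair, measured 9.94 and 9.71 in untreated Lgr5-negative, 6.64 and 6.62 in untreated Lgr5-positive, 7.28 and 7.58 in treated Lgr5-negative and 6.95 and 7.11 in treated Lgr5-positive cells, a difference of 2.79 ± 0.21 (limma adjusted p = 0.00951). Ptgs2, the inducible cyclooxygenase, measured 7.77 and 8.11, then 5.40 and 4.93, then 5.45 and 5.34, then 5.21 and 5.43 in the same order, a difference of 2.70 ± 0.27 (limma adjusted p = 0.0112). Ereg, a ligand of the EGF receptor, measured 5.84 and 5.96 in untreated Lgr5-negative cells and between 3.8 and 3.94 in the other 6 arrays, which is below the dim level. In all of these the untreated Lgr5-negative arrays lay above the rest. Ereg fell by 2.05 in Lgr5-negative cells, with a difference of 1.97 ± 0.16 (limma adjusted p = 0.00951). It was the only one of 14 tested members of the EGF family and its receptors to pass. The filter on dim genes kept Ereg only through the untreated Lgr5-negative arrays, the group that makes its difference.

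F3, the tissue factor that starts coagulation, was less even. It measured 8.92 and 9.07 in untreated Lgr5-negative, 5.92 and 6.06 in untreated Lgr5-positive, 6.87 and 5.86 in treated Lgr5-negative and 7.75 and 6.35 in treated Lgr5-positive cells. The 2 treated mice differed by over 1 log2 unit in the Lgr5-positive population, and mouse 1 was the higher one in both. The difference was 3.68 ± 0.65 (limma adjusted p = 0.0455, and 0.0071 with the mouse as a block). Under cyclic loess and array weights it did not pass (limma adjusted p = 0.0521 and 0.0555). Dpp4, a cell surface peptidase named after its values were seen, fell by 2.09 in Lgr5-negative cells, with a difference of 2.23 ± 0.28 (limma adjusted p = 0.0171).

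In 20 genes the drug moved the populations in opposite directions, and in 19 of them it raised the gene in Lgr5-positive and lowered it in Lgr5-negative cells. Robo1, a receptor for Slit guidance proteins, measured 10.40 and 10.49 in untreated Lgr5-negative, 7.38 and 6.74 in untreated Lgr5-positive, 9.41 and 9.21 in treated Lgr5-negative and 9.12 and 9.38 in treated Lgr5-positive cells. The populations met from both sides. Robo1 rose by 2.19 in one and fell by 1.13 in the other, a difference of 3.32 ± 0.30 (limma adjusted p = 0.0112).

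Inhba, a subunit of activin, which signals through the TGF-beta family's receptors, measured 8.84 and 8.73 in untreated Lgr5-negative, 6.84 and 6.6 in untreated Lgr5-positive, 6.48 and 7.48 in treated Lgr5-negative and 8.33 and 8.12 in treated Lgr5-positive cells. The Lgr5-positive cells were the lower ones without the drug and the higher ones with it, although the gap of treated mice did not itself pass. The difference was 3.30 ± 0.41 (limma adjusted p = 0.0171), and 1.69 with all probe sets averaged. Elovl4, which makes the very long fatty acids of barrier lipids, met at an intermediate level, with effects of 0.98 and −1.13 and a difference of 2.12 ± 0.25 (limma adjusted p = 0.0171). Fam25c and the carboxylesterase Ces2g had differences of 2.42 ± 0.24 and 2.17 ± 0.23 (limma adjusted p = 0.0112 and 0.0131). Tent5b, a noncanonical poly(A) polymerase, turned round: its gaps were −0.43 and −0.94 without and 1.06 and 1.46 with the drug. Its difference was 1.94 ± 0.23 (limma adjusted p = 0.0171).

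Other genes with a positive difference were low in untreated Lgr5-positive cells and rose there. Abca12, the lipid transporter of lamellar granules, measured 8.88 and 8.98 in untreated Lgr5-negative, 4.54 and 4.79 in untreated Lgr5-positive, 8.40 and 8.56 in treated Lgr5-negative and 7.63 and 7.22 in treated Lgr5-positive cells. It rose from below the dim level and remained under the Lgr5-negative cells in both mice. Abca12 rose by 2.76 log2 units in Lgr5-positive cells, its change of −0.45 in Lgr5-negative cells did not pass, and the difference was 3.21 ± 0.24 (limma adjusted p = 0.00951), without a fold for the same reason. Aqp3, a channel for water and glycerol in basal keratinocytes, measured 11.94 and 11.96, then 8.50 and 9.77, then 12.67 and 12.57, then 12.92 and 12.85 in the same order. It ended high in both populations, with a difference of 3.09 ± 0.49 (limma adjusted p = 0.0347). Aqp3 was the only one of 13 tested upper follicle genes to pass, and 11 of the 13 lay above 0 with a median of 0.95. Among them Defb6 and Krt79 had differences of 1.67 ± 0.42 and 0.56 ± 0.19 that did not pass (limma adjusted p = 0.104 and 0.186).

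Sox21, a transcription factor of the hair cuticle, measured 10.19 and 10.56 in untreated Lgr5-negative, 7.12 and 8.01 in untreated Lgr5-positive, 10.62 and 10.93 in treated Lgr5-negative and 10.67 and 10.82 in treated Lgr5-positive cells. It rose 9.07-fold in Lgr5-positive cells, with a difference of 2.78 ± 0.40 (limma adjusted p = 0.0266). Tnc, the matrix protein tenascin C, measured 8.93 and 9.22, then 6.39 and 6.71, then 8.56 and 8.40, then 8.83 and 9.08 in the same order. Both genes thus reached the Lgr5-negative level after the drug. The difference of Tnc was 2.99 ± 0.24 (limma adjusted p = 0.00951), and 1.74 with all probe sets averaged. The transporter genes Nipal1 and Slc16a14, the protease gene Prss23 and the transcription factor gene Sox7 had differences of 3.98 ± 0.67, 2.73 ± 0.32, 3.51 ± 0.58 and 2.15 ± 0.22 (limma adjusted p = 0.0404, 0.0171, 0.0401 and 0.0112). With probe sets averaged Nipal1 had 3.0, which did not pass (limma adjusted p = 0.074), and Prss23 and Sox7 had 1.89 and 1.37.

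Krt10, the keratin of the suprabasal layers, measured 11.97 and 11.90 in untreated Lgr5-negative, 9.61 and 9.91 in untreated Lgr5-positive, 12.13 and 12.18 in treated Lgr5-negative and 11.37 and 11.50 in treated Lgr5-positive cells. Its gaps narrowed to −0.75 and −0.68, with a difference of 1.46 ± 0.19 (limma adjusted p = 0.0209). Krt10 was the only one of 10 suprabasal and hair layer keratins to pass. Krt1 of that list had a larger difference of 2.48 that did not pass (limma adjusted p = 0.0718, but 0.0356 with the mouse as a block). Of 26 tested cornified envelope and barrier genes 3 passed, Tgm3, Sprr2d and Elovl4, each with a fall in Lgr5-negative cells. Slc22a23, a transporter of its family, kept its order in both treatments, with gaps of −1.70 and −1.68 without and −0.82 and −0.79 with the drug. Its difference was 0.88 ± 0.15 (limma adjusted p = 0.0393, and 0.0657 with the mouse as a block or 0.069 with an intensity trend). Tnfrsf19 (TROY), a receptor gene of follicle stem cells and a Wnt target, rose in both populations. The rise was 2.63 in Lgr5-positive and 1.21 in Lgr5-negative cells. Its difference was 1.42 ± 0.21 (limma adjusted p = 0.0298), and 0.96 with its probe sets averaged (limma adjusted p = 0.0418). Its other probe sets gave 1.26 and 0.20.

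In all 59 genes with a negative difference the untreated Lgr5-positive cells had the higher mean, and in 57 the drug effect in those cells was below 0. Cldn10, a claudin of tight junctions, measured 6.15 and 5.81 in untreated Lgr5-negative, 8.53 and 8.21 in untreated Lgr5-positive, 4.70 and 4.89 in treated Lgr5-negative and 4.70 and 4.72 in treated Lgr5-positive cells. After the drug both populations were near the dim level. Cldn10 fell by 3.66 in Lgr5-positive and by 1.19 in Lgr5-negative cells, a difference of −2.47 ± 0.24 (limma adjusted p = 0.0112), and its probe set can bind related transcripts.

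Regulators of hair follicle stem cells and progenitors were the list with most negative calls. Of 22 tested members 3 passed with a negative difference (Tbx1, Sox13 and Foxc1) and 1 with a positive one (Sox21), and 18 lay below 0, with a median of −0.59. The drug lowered 10 of the 22 in Lgr5-positive cells and 3 in Lgr5-negative cells. Sox13, which can bind and restrain TCF factors of the Wnt pathway, measured 7.76 and 7.86 in untreated Lgr5-negative, 10.05 and 10.03 in untreated Lgr5-positive, 6.15 and 6.04 in treated Lgr5-negative and 5.83 and 6.57 in treated Lgr5-positive cells. Tbx1, a transcription factor of follicle stem cells, measured 7.34 and 7.25, then 9.06 and 9.73, then 7.18 and 7.12, then 6.47 and 7.25 in the same order. Foxc1, which keeps follicle stem cells quiescent, measured 8.71 and 8.33, then 9.88 and 9.91, then 9.19 and 9.09, then 9.02 and 9.03. In all of them the gap was over 1 log2 unit in each untreated mouse, and in treated mice it lay between −0.70 and 0.52. The differences were −2.14 ± 0.31 for Sox13, −2.39 ± 0.40 for Tbx1 and −1.49 ± 0.20 for Foxc1 (limma adjusted p = 0.0272, 0.0413 and 0.0225). Tbx1 and Foxc1 passed in Lgr5-positive cells only, while Sox13 fell in both, by 3.84 and 1.71.

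Spry4, a feedback inhibitor of the ERK pathway, measured 6.94 and 7.05 in untreated Lgr5-negative, 9.50 and 9.16 in untreated Lgr5-positive, 5.58 and 5.84 in treated Lgr5-negative and 6.07 and 5.97 in treated Lgr5-positive cells. It fell in both populations, by 3.31 and 1.28, with a difference of −2.03 ± 0.22 (limma adjusted p = 0.0142), and −1.25 with its probe sets averaged. Of 19 tested genes of ERK feedback and ETS effectors it alone passed, and 15 lay below 0, with a median of −0.33. Etv4, an ETS factor that ERK signalling induces, had a difference of −1.10 ± 0.28 that did not pass (limma adjusted p = 0.102).

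Jun, the AP-1 subunit, was the only one of 26 immediate early genes to pass. It measured 10.64 and 10.53 in untreated Lgr5-negative, 11.37 and 11.50 in untreated Lgr5-positive, 10.88 and 10.70 in treated Lgr5-negative and 10.43 and 10.54 in treated Lgr5-positive cells, a difference of −1.16 ± 0.18 (limma adjusted p = 0.032). The untreated Lgr5-positive arrays were the high ones. The list as a whole lay low: 24 of 26 differences were below 0, with a median of −0.56, and the drug lowered 10 of the 26 in Lgr5-positive and 0 in Lgr5-negative cells. The list mean was 10.4 and 10.5 in untreated Lgr5-positive arrays and between 9.85 and 10.1 in the other 6. Nr4a1, Junb and Ier2 had differences of −1.30 ± 0.28, −1.19 ± 0.26 and −1.02 ± 0.37 that did not pass (limma adjusted p = 0.0767, 0.0808 and 0.216).

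Other genes of this direction were Cntfr, the receptor of ciliary neurotrophic factor, and Trpv4, a cation channel, both of which fell in both populations, with differences of −1.83 ± 0.18 and −1.75 ± 0.24 (limma adjusted p = 0.0112 and 0.0225). That of Cntfr was −1.04 with its probe sets averaged, and −0.24 on its other probe set. Efemp1 (fibulin 3), Adamtsl1 and the laminin chain gene Lamb1, of the extracellular matrix, had differences of −1.93 ± 0.19, −2.21 ± 0.34 and −1.46 ± 0.25 (limma adjusted p = 0.0112, 0.0336 and 0.0422). Efemp1 measured 5.94 and 6.26 in untreated Lgr5-positive cells and between 4.26 and 4.54, below the dim level, in the other 6 arrays. The filter on dim genes kept Efemp1 only through the untreated Lgr5-positive arrays, the group that makes its difference. Dact1, an inhibitor of Wnt signalling, and Chrd (chordin), an inhibitor of BMPs, had differences of −1.72 ± 0.21 and −1.09 ± 0.15 (limma adjusted p = 0.0171 and 0.0258). Fhl1, of the list of quiescence genes, had −1.73 ± 0.17 (limma adjusted p = 0.0112), and −0.88 with its probe sets averaged. Cdkn2b, the cyclin-dependent kinase inhibitor p15, had −1.97 ± 0.37 that did not pass (limma adjusted p = 0.0527, and 0.0265 with the mouse as a block).

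In 5 genes with a negative difference the drug effect passed in Lgr5-negative cells alone, as a rise. Krt15, a keratin of basal cells and of bulge stem cells, measured 9.68 and 9.47 in untreated Lgr5-negative, 11.12 and 11.34 in untreated Lgr5-positive, 11.65 and 11.81 in treated Lgr5-negative and 11.44 and 11.85 in treated Lgr5-positive cells. The untreated Lgr5-negative arrays were the low ones, and the other 6 lay between 11.12 and 11.85. Krt15 rose 4.44-fold in Lgr5-negative cells, and the difference was −1.73 ± 0.24 (limma adjusted p = 0.0239). Its neighbour Krt16 moved the other way in the same population. The other 4 were Ano9, Adgrl3, Dop1b and Adamtsl4, with rises of 1.15, 1.73, 1.11 and 0.59 in Lgr5-negative cells. In Lgr5-positive cells Ano9 and Adamtsl4 had effects of −0.67 and −0.34 that did not pass. The difference of Adgrl3 with its probe sets averaged did not pass (limma adjusted p = 0.0979), nor did that of Adamtsl4 with the mouse as a block, an intensity trend or array weights (limma adjusted p = 0.063, 0.0698 and 0.0529). Dop1b was the called gene whose gap passed in neither treatment: its gaps were 0.46 and 0.48 without and −0.67 and −0.76 with the drug. Its call ended with probe sets averaged (limma adjusted p = 0.0563) and in 5 of the other alternatives, where the adjusted p lay between 0.0521 and 0.0571.

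Growth and metabolism lists held few called genes. Of 28 tested DNA replication genes 1 passed, Tyms (thymidylate synthase), with a difference of 1.21 ± 0.20 (limma adjusted p = 0.0411), but 0.26 with its probe sets averaged (limma adjusted p = 0.339). Tyms also lost its call under cyclic loess and an intensity trend (limma adjusted p = 0.0521 and 0.0523). Its other probe sets had mean signals between 4.52 and 5.45, against 8.80 for the set used. Of 26 cell cycle genes 0 passed, and of the 28 replication genes 26 lay above 0, with a median of 0.44. The mean signal of the cell cycle list was 8.21 and 8.53 in untreated Lgr5-negative arrays, 7.61 and 7.93 in treated Lgr5-negative arrays and between 6.98 and 7.39 in the 4 Lgr5-positive arrays, so it was higher in Lgr5-negative cells in every mouse. Of 22 ribosome biogenesis and Myc target genes 2 passed, Odc1 (1.21 ± 0.19, limma adjusted p = 0.0362) and Ddx21 (1.08 ± 0.18, limma adjusted p = 0.0401). With the mouse as a block neither did (limma adjusted p = 0.0536 and 0.0514), nor did Ddx21 under cyclic loess (limma adjusted p = 0.0618). Of 18 hypoxia and glycolysis genes 1 passed, the phosphofructokinase Pfkl, with 1.42 ± 0.25 (limma adjusted p = 0.043), and 17 lay above 0. Pfkl lost its call with probe sets averaged, at 0.90 (limma adjusted p = 0.136), and under cyclic loess (limma adjusted p = 0.0545). The list medians of Notch and of cholesterol and fatty acid synthesis genes were −0.17 and −0.06, and 0 of 14 and 0 of 20 members passed.

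**Figure D5:**
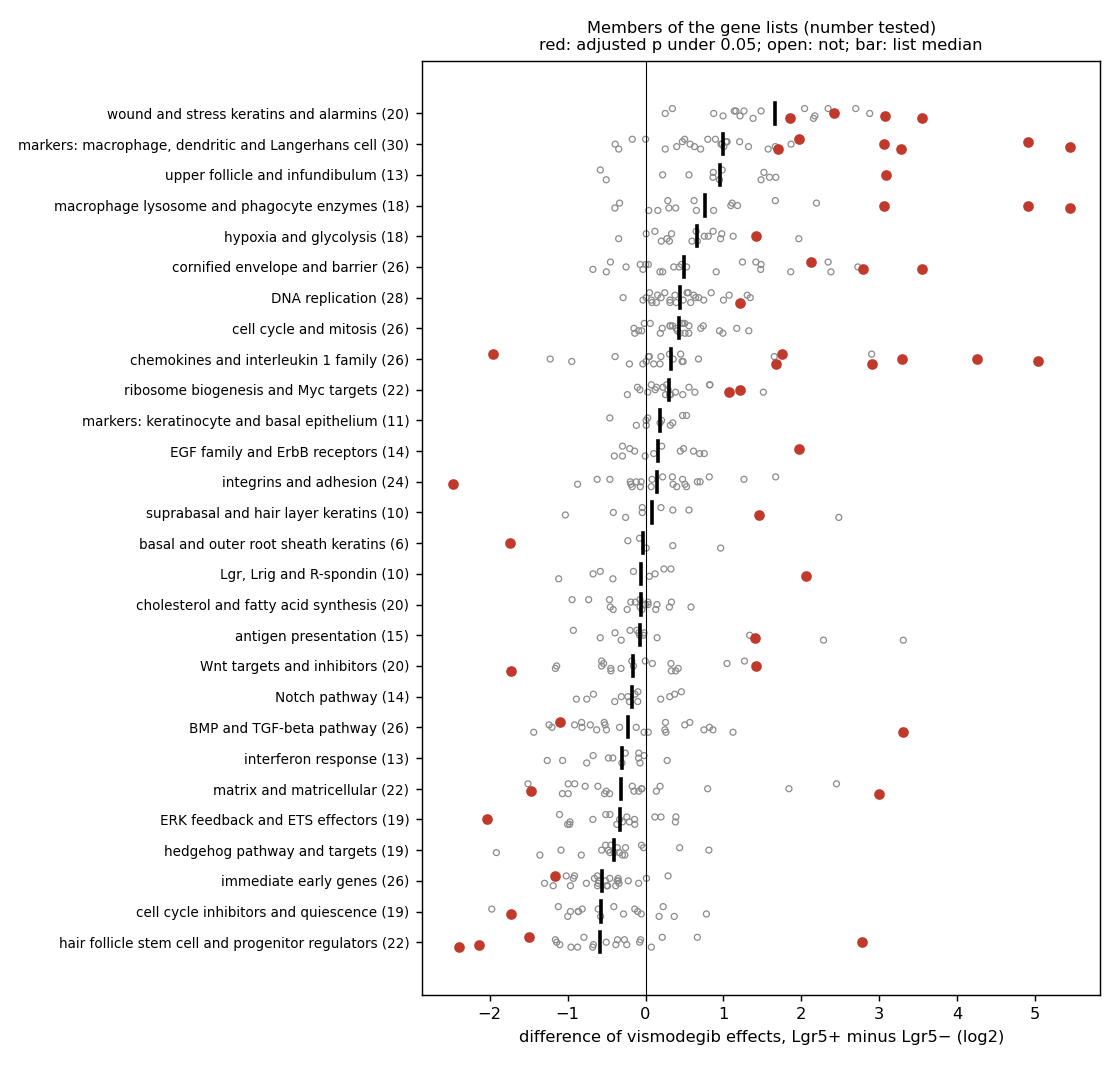
Difference of vismodegib effects (Lgr5-positive minus Lgr5-negative, log2) for every tested member of the gene lists, 1 point per gene, filled red where the gene passed (limma, adjusted p under 0.05), with a bar at the list median and the number tested in brackets. Wound and stress genes lie wholly above 0 (0.25 to 3.55), while immediate early genes (24 of 26 below 0) and follicle regulators (18 of 22 below 0) lie mostly below it.

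Of the 202 genes, 108 had 1 probe set, and the other 94 had 152 further probe sets, of which 142 gave a difference of the same sign. Among the 126 of these above the dim level it was 120. Besides the 4 genes on chromosome 5 and the 3 Sprr2 genes on chromosome 3, called genes lay near each other as Sox21, Abcc4 and Cldn10 on chromosome 14, of which Sox21 and Cldn10 had opposite signs.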

How the data were processed

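RNA of 8 sorted samples, amplified as cDNA, was hybridised to Affymetrix mouse perfect-match arrays. The authors deposited RMA output on the log2 scale, per the submitters' processing notes, which name no version. RMA removes background, matches quantiles across arrays and merges the probes of a set, so a shift common to all genes would be hidden. No further normalisation was applied. Of 45141 probe sets, 104 were controls, 28898 had 1 gene symbol in the platform annotation, 551 several and 15588 none. Each of 17097 genes was read on its brightest probe set, and genes above 4.85, the 25th percentile, in at least 2 arrays were tested. That left 14403 and set 2694 aside.

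A group-means model was fitted with limma 3.58.1 under R 4.3.3, with eBayes moderation and two-sided tests, and the difference of drug effects was its interaction contrast. The 4 residual degrees of freedom were joined by 3.53 from the prior. Errors in the report are moderated standard errors of the contrast, from a spread shared by all 8 arrays, with n = 2 arrays a group. The script was tested on simulated data.

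The mouse links both populations: deviations of a mouse's 2 arrays from their group means correlated at 0.142 (untreated) and 0.211 (treated). The blocked fit is given for part of the genes whose call it changes. Among genes picked by the naming rule and not described above, Lef1, H2-Eb1, Ccnb2, Tgfb3, Sparc, Wif1, Lrig3 and Fn1 passed with the block and not in the main fit. Their adjusted p in the blocked limma fit lay between 0.0175 and 0.0485. Alternatives were the filter, averaging of probe sets, cyclic loess, median centring, an intensity trend, array weights and leaving out each array or mouse. Averaging gave all probe sets of a gene equal weight, dim ones included. The probe sets of Inhba, Tnc and Fhl1 not read in the main fit had mean signals of 4.70, 4.00 and 4.01, below the dim level.

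Named genes were Lgr5, Lrig1, Ptch1, Gli1, the largest differences in each direction and class, and the called or largest members of each of 35 lists. The members and lists were chosen with earlier results of these data known. Whether a gene's drug effects passed, and so its class, was read from the same fit.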

Additional observations from a re-analysis of the deposited data

Results flagged for a closer look

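The vismodegib effect differed between the populations by a test of the difference itself (limma, adjusted p under 0.05) in 202 genes. In 20 genes both effects passed with opposite signs. The largest such difference was in Cxcl2, at 5.03 log2 units, followed by Robo1 at 3.32, Inhba at 3.3 and Fam25c at 2.42. All 20 kept their sign when any array was left out, but they were picked on these same arrays, so this adds no support.

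Probe sets with no gene symbol were outside the gene table. When all 35174 probe sets above the dim level were fitted together, 251 passed, and 61 of these had no symbol, of 11146 such probe sets tested. The largest difference among the 61 was 5.04 ± 0.503 (SE, limma adjusted p = 0.0195), with log2 signals of 11.83 and 11.71 in treated Lgr5-positive cells and 5.83 and 4.80 in untreated Lgr5-positive cells. Their genes are not named here.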

How the results depend on the processing

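All 202 genes kept the sign of their difference wherever they were tested. This covers the 8 fits that left out 1 array, the 4 that left out 1 mouse and the 9 other alternatives. The 202 were picked on the same arrays, so the kept signs add no support. The count itself lay between 148 (no filter on dim genes) and 300 (mouse as a fixed block) over those 9, and between 0 and 251 with an array or a mouse left out. Leaving out a whole mouse gave 0, 1 and 1 calls, and 20 (17 positive) without treated mouse 2. The positive count lay between 0 and 186 and the negative count between 0 and 70 in the same omissions. The count of 0 came without treated mouse 1, where 2153 genes had an unadjusted p under 0.05 in limma. With an array left out its group holds 1 sample, assumed to vary like the others. With 1 array left out the classes ranged from 2 to 166 genes for Lgr5-positive only, 0 to 37 for Lgr5-negative only, 0 to 30 for both in the same direction, 0 to 18 for opposite directions and 0 to 3 for neither. With the mouse as a replicate block the negative count was 93 (fixed) or 89 (random) against 59, and 169 of the 202 passed under the fixed block. Cyclic loess left 0 genes in the class where neither effect passed, and put 66.1% of calls on the positive side against 70.8%. The causes were not tested. Of 172 genes picked by the naming rule 75 were called, and 48 of these passed in all 9 alternatives other than omissions. A fit of all 23551 probe sets above the dim level with 1 gene symbol, added after seeing the data, gave 274 calls in 238 genes. RMA values give no counts. The number of arrays and the low end of the scale limit precision, and the choice of probe set and normalisation also changed calls.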
